A study of Homo sapiens with 4 samples.

Results

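TRAIL, the death ligand encoded by TNFSF10, was the member of the TRAIL and death receptor pathway whose mRNA differed most when the long noncoding RNA lnc-DC was silenced in HaCaT keratinocytes, while the ratio of knockdown to control means lay between 0.999 and 1.37 for the 5 other members measured well enough to be tested. The pathway was taken as the rows of the deposited table for 9 genes out of 58825: TNFSF10, the receptors TNFRSF10A, TNFRSF10B, TNFRSF10C, TNFRSF10D and FAS, the adaptor FADD, the protease CASP8 and its inhibitor CFLAR. All 9 were found, each once. The genes were chosen by pathway with the FPKM differences between these knockdown and control libraries already known, TNFSF10 having been among the genes called lower. Their differences are therefore given as a description, and nothing is inferred from how many of them passed a threshold.

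HaCaT is an established line of human keratinocytes that can be induced to differentiate by calcium. All 4 libraries came from HaCaT cells grown in 1.2 mM calcium and exposed to a lentivirus. The control group carried the control hairpin (shNC) and the knockdown group carried a hairpin against lnc-DC (shlnc-DC), with 2 libraries in each, described in the labels as biological replicates. Only 1 hairpin per group is named, so an effect of lnc-DC and an effect of that hairpin cannot be told apart, and no source says that the replicates were transduced separately, so the p-values cover the spread among these 4 libraries and no more. lnc-DC itself, the transcript of WFDC21P, was listed at 2.15 and 2.76 FPKM (fragments per transcript length and library size) with shNC and at 0.09 and 0.29 FPKM with shlnc-DC. Its groups did not overlap, and 19.2% of all tested genes were likewise lower without overlap. The mean fell 12.9-fold, from 2.455 to 0.19 FPKM, and reached the minimum of 1 FPKM for testing only in the control group. On the log2(FPKM + 1) scale, where the added 1 shrinks differences at such low values, the difference of lnc-DC was -1.54 (SE 0.188). Its adjusted p was 0.0715 in the limma fit across all tested genes. That is above the threshold of 0.05, so lnc-DC itself was not called different.

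TRAIL is a membrane-bound or shed ligand of the tumour necrosis factor family. It triggers apoptosis by clustering the death receptors TRAIL-R1 and TRAIL-R2 (TNFRSF10A and TNFRSF10B), whose cytoplasmic death domains recruit FADD, which in turn gathers caspase-8. FAS uses the same adaptor and protease when bound by its own ligand, and the caspase-8 relative cFLIP (CFLAR) takes a place in the complex and limits the activation of the protease. The decoy receptors TRAIL-R3 and TRAIL-R4 (TNFRSF10C and TNFRSF10D) bind TRAIL without a functional death domain. In epithelia TNFSF10 is known as an interferon-inducible gene, and keratinocytes are known to carry TRAIL receptors.

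The promoter of TNFSF10 is shown because TNFSF10 was the only member called different and interferon regulatory factors are known to act on it. In GENCODE 29 (GRCh38) the gene spans positions 172505508 to 172523507 of chromosome 3 and is read from the minus strand. The bases that precede its outermost annotated start, chr3:172523508-172523680, are taken from the RefSeq promoter table (GRCh38.p14) and are printed on the minus strand, 5′ to 3′. The capitals mark a match to the core of the interferon-stimulated response element.

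TNFSF10 promoter: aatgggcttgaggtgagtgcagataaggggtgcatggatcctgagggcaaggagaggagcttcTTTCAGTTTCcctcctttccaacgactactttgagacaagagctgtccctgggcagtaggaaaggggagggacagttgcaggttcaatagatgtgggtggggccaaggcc

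The match lies 101 bases before the outermost start. The letters searched were GAAANNGAAA, on both strands. Over windows of 250 bases before to 50 after a start, 3.57% of 35116 RefSeq promoters hold them. The TNFSF10 window held no match to the GAS core TTCNNNGAA (7.66% of promoters), the FOXO site GTAAACA (3.42%) or the GC box GGGCGG (45% of promoters), each searched on both strands. The promoter table held 12 windows for 5 of the members. Outside TNFSF10, the response element core was found in 1 of 3 windows of CASP8 and in none of the windows of CFLAR, FADD and FAS. A match is a string of letters and does not show that a factor binds there.

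The ligand stood at 37.13 and 40.0 FPKM with shNC and at 7.49 and 9.93 FPKM with shlnc-DC. Both knockdown libraries lay far below both control libraries. The mean fell 4.43-fold, from 38.6 ± 2.03 to 8.71 ± 1.73 FPKM (SD, n = 2 per group), and the difference on the log2(FPKM + 1) scale was -2.04 (SE 0.158, 95% interval -2.45 to -1.62). In the limma fit across 12411 genes TNFSF10 passed the threshold of 0.05 narrowly, with an adjusted p of 0.0438. Leaving out any 1 of the 4 libraries kept the difference between -2.22 and -1.86, with an adjusted p between 0.13 and 0.245, above the threshold in each case. It was also above it when genes of low value were kept (adjusted p = 0.17) and with the replicate number as a block (adjusted p = 0.098). For TNFSF10 the log2 ratio in the authors' deposited table is -2.15. In rank, it went from above 92.7% and 93% of the tested genes with shNC to above 58.5% and 68% with shlnc-DC. Of the tested genes 18 had a lower fitted difference, and 9 of those also passed the threshold.

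**Figure D1:**
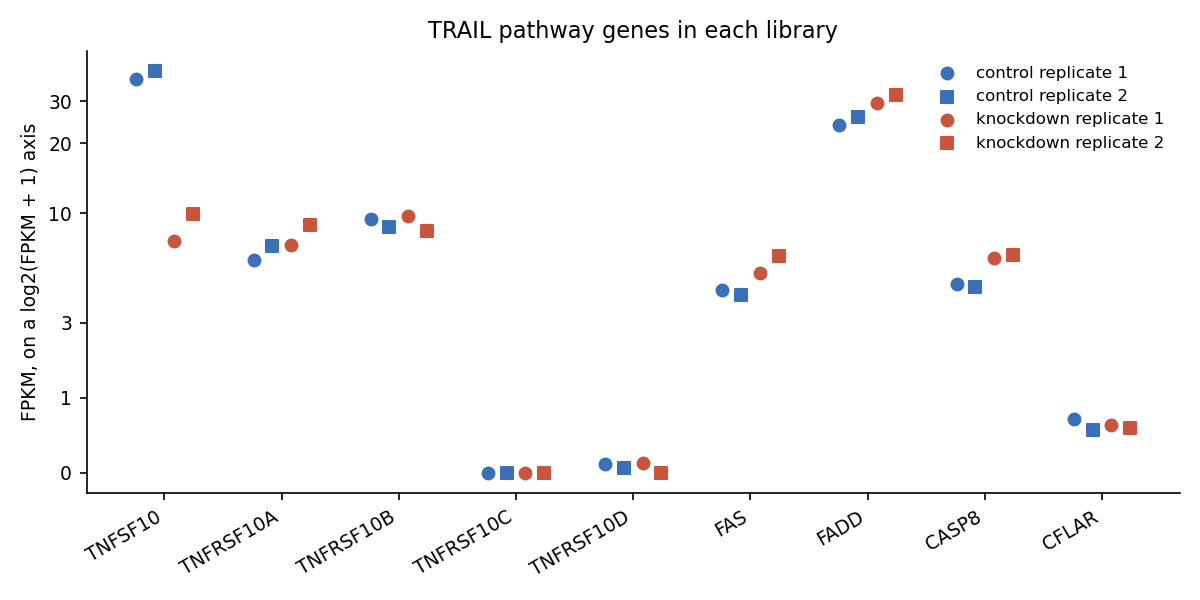
FPKM of the 9 genes in each library, on a log2(FPKM + 1) axis; blue is control, red is knockdown, circles are replicate 1 and squares replicate 2. TNFSF10 falls from 37.13 and 40.0 FPKM to 7.49 and 9.93 FPKM, while TNFRSF10C, TNFRSF10D and CFLAR lie below 1 FPKM in every library.

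Among the death receptors for TRAIL, TNFRSF10B was listed at 9.45 and 8.7 FPKM with shNC and at 9.77 and 8.37 FPKM with shlnc-DC. The knockdown values lay on either side of the control values. The log2 difference was -0.0032 (SE 0.126), and its 95% interval of -0.33 to 0.33 leaves room for a change of either sign.

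TNFRSF10A, the other receptor with a death domain, stood at 6.17 and 7.11 FPKM with shNC and at 7.21 and 8.89 FPKM with shlnc-DC. The groups did not overlap, but the highest control and the lowest knockdown library were close together. The log2 difference was 0.24 (SE 0.148, 95% interval -0.15 to 0.63). Both receptors share exonic sequence with genes on the opposite strand that were themselves expressed. For TNFRSF10B this was RHOBTB2 (2.95 to 4.68 FPKM). For TNFRSF10A these were TNFRSF10A-AS1 (1.04 to 3.02 FPKM) and AC100861.1 (1.46 to 1.79 FPKM). The strand setting of the authors' quantification is not given in the sources used here, so how reads were divided between these partners cannot be read from the table.

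The decoy receptors were listed at or near 0. TNFRSF10C was listed at 0 in all 4 libraries, and TNFRSF10D at 0.09 and 0.05 FPKM with shNC and 0.1 and 0 FPKM with shlnc-DC. A value of 0 in this table may be a failed estimate, and a lincRNA that shares exons with TNFRSF10C on the same strand, AC107959.4, was listed at 0.07 to 0.35 FPKM. In summed FPKM of the 4 membrane receptors, decoys made up 0.573% and 0.315% with shNC and 0.585% and 0% with shlnc-DC. These shares rest on values at the resolution of the table, and no difference between groups can be read from them. The soluble decoy osteoprotegerin, TNFRSF11B, was listed at 0.23 and 0.58 FPKM in control and 1.15 and 1.07 FPKM in knockdown cells. It reached the minimum level for testing only through the knockdown group, and its log2 difference of 0.60 (SE 0.199) had a limma adjusted p of 0.181.

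The death receptors TNFRSF10A and TNFRSF10B therefore made up nearly all of the receptor mRNA, and their sum was 15.6 and 15.8 FPKM with shNC and 17.0 and 17.3 FPKM with shlnc-DC. TNFRSF10B contributed 60.2%, 54.9%, 57.2% and 48.5% of summed receptor FPKM in control replicates 1 and 2 and knockdown replicates 1 and 2. The ratio of ligand to death receptor mRNA was 2.38 and 2.53 with shNC and 0.441 and 0.575 with shlnc-DC. Ligand mRNA thus exceeded summed receptor mRNA in both control libraries and was below it in both knockdown libraries. This ratio follows from the same TNFSF10 values and is not a separate observation.

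**Figure D2:**
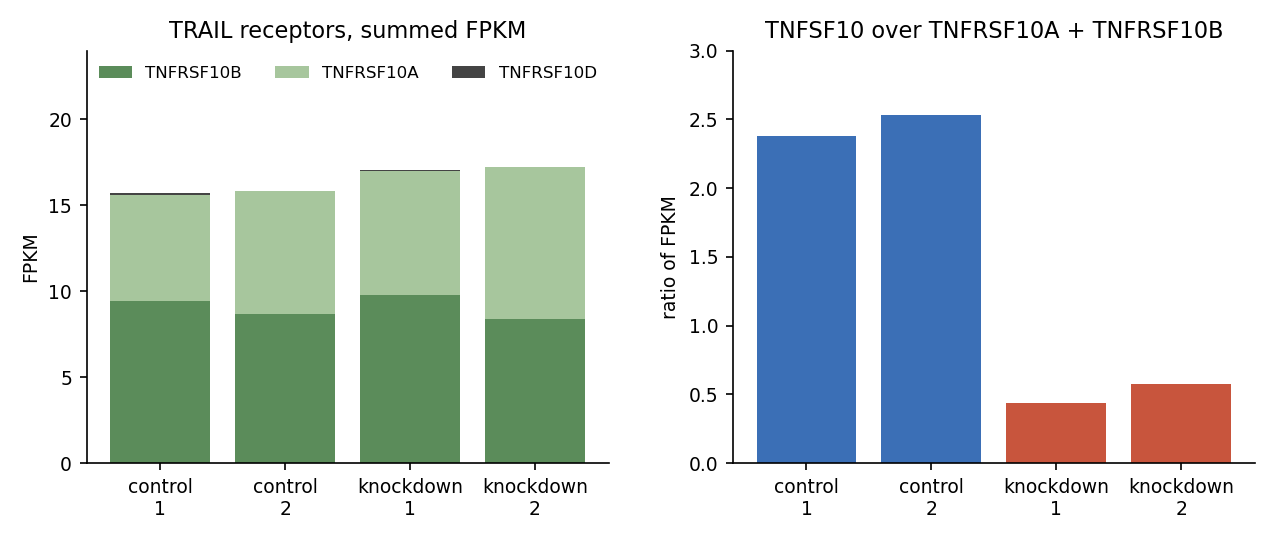
Left, summed FPKM of the TRAIL receptors in each library, stacked by gene (TNFRSF10C was 0 in all). Right, the FPKM of TNFSF10 divided by the sum of TNFRSF10A and TNFRSF10B; receptor sums lie between 15.7 and 17.3 FPKM while the ratio goes from 2.38 and 2.53 to 0.441 and 0.575.

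FAS, the receptor for Fas ligand, stood at 4.44 and 4.16 FPKM with shNC and at 5.35 and 6.38 FPKM with shlnc-DC. Both knockdown values lay above both control values. The ratio of means was 1.36 and the log2 difference 0.37 (SE 0.132), with a limma adjusted p of 0.199, short of the threshold. Its ligand FASLG was listed at 0 in all 4 libraries. Exons of FAS overlap those of ACTA2 on the opposite strand, which was listed at 1.08 to 1.75 FPKM.

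FADD, the adaptor that links either receptor to the protease, was the most abundant member in both knockdown libraries. It had 23.79 and 25.79 FPKM with shNC and 29.44 and 31.8 FPKM with shlnc-DC. The groups did not overlap, and the log2 difference was 0.29 (SE 0.11, adjusted p = 0.214 in limma).

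CASP8, the initiator caspase, stood at 4.73 and 4.57 FPKM with shNC and at 6.27 and 6.49 FPKM with shlnc-DC. Its replicates were the tightest of the tested members, and the groups did not overlap. The ratio of means was 1.37 and the log2 difference 0.39 (SE 0.109), with a limma adjusted p of 0.148. CASP10, the paralogue next to CASP8 on chromosome 2 that can join the same complex, did not reach the minimum mean of 1 FPKM for testing. It was listed at 0.82 and 1.0 FPKM in control and at 0.41 and 0.61 FPKM in knockdown cells, so within this gene cluster its values lay in the opposite order to those of CASP8.

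CFLAR, the third gene of that cluster and the inhibitor of caspase-8 activation, was also below the minimum, at 0.65 and 0.48 FPKM with shNC and 0.56 and 0.51 FPKM with shlnc-DC. The groups overlapped. CASP8 exceeded CFLAR by 7.28-fold and 9.52-fold with shNC and by 11.2-fold and 12.7-fold with shlnc-DC, per length of transcript. These ratios reuse the values of CASP8, which was not called, and are not a separate observation. GENCODE 29 annotates 25 transcripts for CFLAR, from 435 to 14672 bases long, so its FPKM depends strongly on the length assigned to it. The transcripts of CASP8 span 230 to 2930 bases.

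In order of mean FPKM over the 4 libraries the members ran FADD, TNFSF10, TNFRSF10B, TNFRSF10A, CASP8, FAS, CFLAR, TNFRSF10D and TNFRSF10C. FADD and TNFSF10 changed places, TNFSF10 being higher in both control libraries and FADD in both knockdown libraries. TNFRSF10B exceeded TNFRSF10A in 3 of 4 libraries, and their ranges overlapped. TNFRSF10A exceeded CASP8, and CASP8 exceeded FAS, in all 4 libraries, though the ranges again overlapped. The step from FAS (4.16 to 6.38 FPKM) down to CFLAR (0.48 to 0.65 FPKM) and the step from CFLAR to TNFRSF10D were the only ones between neighbours whose ranges did not overlap.

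Of the 9 members, 6 reached the minimum level and were tested; TNFRSF10C, TNFRSF10D and CFLAR did not. In the fit across all genes 1 of the 6 was called, lower in the knockdown, and 5 were not (adjusted p from 0.148 to 0.991), beside 0.25% of all tested genes called. The groups did not overlap in 5 of the 6 tested members, 4 higher (TNFRSF10A, FAS, FADD and CASP8) and TNFSF10 lower, and they overlapped or were all at 0 in the 3 untested members. Among all tested genes they did not overlap in 54.8%, higher in 35.6% and lower in 19.2%; as the members were chosen with this contrast known, nothing is read from the comparison. The median log2 difference was 0.27 over the 6 tested members and 0.09 over all tested genes, whose middle 50% ran from -0.14 to 0.29. The differences of FAS and CASP8 thus lay above that middle range, that of FADD at its upper edge and that of TNFRSF10A within it. Mitochondrially encoded transcripts took 41.2% and 41.9% of summed FPKM in control and 28.1% and 26.8% in knockdown libraries, which bears on values scaled to a library total. With those transcripts left out and the rest rescaled, the log2 difference was -2.08 for TNFSF10, 0.20 for TNFRSF10A, -0.04 for TNFRSF10B, 0.33 for FAS, 0.25 for FADD and 0.35 for CASP8.

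**Figure D3:**
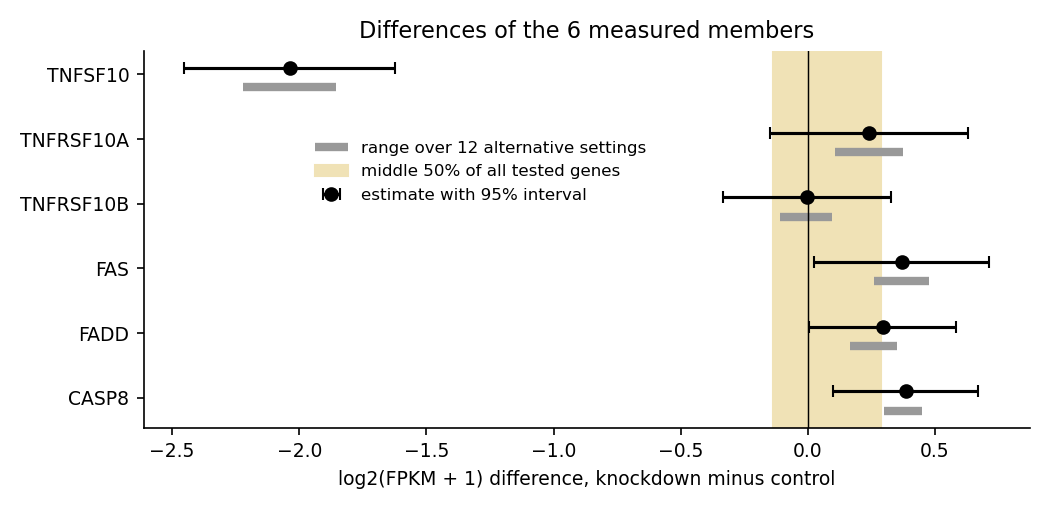
Difference in log2(FPKM + 1), knockdown minus control, of the 6 tested members: points are estimates with 95% intervals not adjusted for the number of genes, grey bars the range over 12 alternative settings, and the shaded band the middle 50% of all tested genes. TNFSF10 lies at -2.04, and the other 5 members lie between 0.00 and 0.39.

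None of the members' nearest expressed neighbours passed the threshold, which 0.25% of all tested genes passed. Genes that overlap a member locus, such as RHOBTB2, were not counted as neighbours. FNDC3B and NCEH1, which flank TNFSF10 at 103843 and 106742 bases, had log2 differences of 0.53 (SE 0.221) and -0.38 (SE 0.14), with limma adjusted p of 0.246 and 0.21. STAMBPL1 and LIPA, on either side of FAS, had 0.56 and 0.23, the former being the largest difference among the 10 neighbours (1.49 and 1.66 FPKM with shNC, 2.71 and 2.88 FPKM with shlnc-DC). The genes on either side of FADD, ANO1 and PPFIA1, had log2 differences of 0.55 and 0.39. CHMP7 and BIN3, on either side of the TRAIL receptor cluster, had 0.47 and 0.38. NDUFB3 and TRAK2, on either side of CFLAR and CASP8, had 0.16 and 0.09.

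By Euclidean distance between log2(FPKM + 1) values of the 4 libraries, each gene centred on its own mean, the tested genes most like TNFSF10 were OLFM4 (distance 0.0873), SCGB1A1 (0.141), KRT13 (0.168), MMP7 (0.249) and ATP6V1B1 (0.356). OLFM4, a secreted glycoprotein of epithelial progenitors, was listed at 13.74 and 13.89 FPKM in control and 2.26 and 2.96 FPKM in knockdown cells. SCGB1A1, a secretoglobin of airway epithelium, was listed at 139.44 and 170.94 FPKM in control and 31.05 and 41.81 FPKM in knockdown cells. MMP7, the epithelial metalloprotease matrilysin, was listed at 9.16 and 11.72 FPKM and then at 1.8 and 2.59 FPKM. Likeness over 4 libraries in 2 groups reflects mainly the size of the group difference.

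The other genes of the pathway were taken from 6 lists of 87 genes in all, of which 69 were tested. In limma none was called in either direction at an adjusted p under 0.05. At an unadjusted p under 0.05, 14 were higher and 7 lower, or 21 of 69, where 22.8% of all tested genes passed, 14.8% higher and 8% lower. The median log2 difference of the 69 was 0.05, beside 0.09 over all tested genes. No change is claimed for any of the values that follow.

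Other death ligands and receptors had 7 of 15 genes tested and a median of 0.02. TNF was listed at 0.11 to 0.14 FPKM, whereas its receptor TNFRSF1A stood at 14.7 and 11.25 FPKM in control and 15.25 and 11.21 FPKM in knockdown cells. The death domain receptor TNFRSF21 (DR6) was the most abundant of the list. It had 108.72 and 98.93 FPKM in control and 74.2 and 66.73 FPKM in knockdown cells, a log2 difference of -0.55 (SE 0.121, limma adjusted p = 0.112). The neurotrophin receptor NGFR had -0.43 and the ligand TNFSF15 had 0.57, with groups that did not overlap.

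Components and modulators of the receptor complex had 18 of 21 genes tested and a median of 0.18. Of these the values of 10 were higher without overlap and of 2 lower, where 35.6% of all tested genes were higher and 19.2% lower without overlap. TNFAIP3, the ubiquitin-editing inhibitor A20, went from 4.64 and 3.61 FPKM to 9.51 and 8.42 FPKM, a log2 difference of 0.96 (SE 0.151, limma adjusted p = 0.0825). DEDD, a protein with a death effector domain, had 0.46, and FAIM, an inhibitor of Fas-driven apoptosis, had 0.70. TRADD (-0.04) and RIPK1 (-0.18), which carry the signal from TNF receptors, had overlapping groups. RIPK3, the kinase of necroptosis, was listed at 0 in all 4 libraries while its substrate MLKL was listed at 4.22 to 6.94 FPKM.

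Among 12 tested executioner caspases and substrates the median was 0.07. PARP1, a DNA repair enzyme and caspase substrate, stood at 53.07 and 55.62 FPKM in control and at 66.88 and 69.91 FPKM in knockdown cells, a log2 difference of 0.33 (SE 0.104, limma adjusted p = 0.173). The chromatin protein ACIN1, also a caspase substrate, had 0.33 (SE 0.119, adjusted p = 0.203).

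The mitochondrial arm, through which caspase-8 acts by cutting BID, had 13 tested genes and a median of 0.00. BID stood at 10.35 and 11.11 FPKM in control and at 12.31 and 11.88 FPKM in knockdown cells. Among BH3-only and BAX-like killer genes the signs differed: BIK had a log2 difference of 0.56 (SE 0.113), BOK -0.51 (SE 0.118) and BMF -0.72 (SE 0.159), with limma adjusted p from 0.105 to 0.116. BMF reached the minimum level only through the control group. The survival genes BCL2L1 and MCL1 were the most abundant of the list. BCL2L1 had 39.98 and 40.28 FPKM in control and 42.37 and 37.92 FPKM in knockdown cells. MCL1 had 76.18 and 78.47 FPKM in control and 61.02 and 61.72 FPKM in knockdown cells. Its log2 difference was -0.33 (SE 0.102, limma adjusted p = 0.165).

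Of the inhibitors of apoptosis and their antagonists 6 of 8 were tested, with a median of 0.05. BIRC5, survivin, a gene of mitosis as well, had 4.47 and 4.46 FPKM in control and 6.85 and 7.52 FPKM in knockdown cells (log2 difference 0.58, limma adjusted p = 0.102). XIAP, the direct inhibitor of caspases, was listed at 1.42 and 0.97 FPKM in control and at 0.32 and 2.35 FPKM in knockdown cells, a spread between replicates that leaves its direction undefined.

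All 13 transcription factors known to act on the TRAIL promoter were tested, and 9 lay below 0, as did 4794 of all 12411 tested genes. The median was -0.10, beside 0.09 over all tested genes. Of the 13, 4 were lower and 2 higher without overlap, and 7 had overlapping groups. Among all tested genes 19.2% were lower and 35.6% higher without overlap. IRF1, which binds interferon response elements, stood at 20.98 and 21.62 FPKM in control and at 13.07 and 11.62 FPKM in knockdown cells. Its log2 difference of -0.74 (SE 0.112) had a limma adjusted p of 0.0785. IRF3 had -0.62 (SE 0.144, adjusted p = 0.116). NFKB1, a subunit of NF-kappaB, lay the other way, at 13.68 and 13.25 FPKM in control and 17.84 and 18.82 FPKM in knockdown cells (log2 difference 0.42, adjusted p = 0.122). The part of these factors in the TNFSF10 values was not tested.

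**Figure D4:**
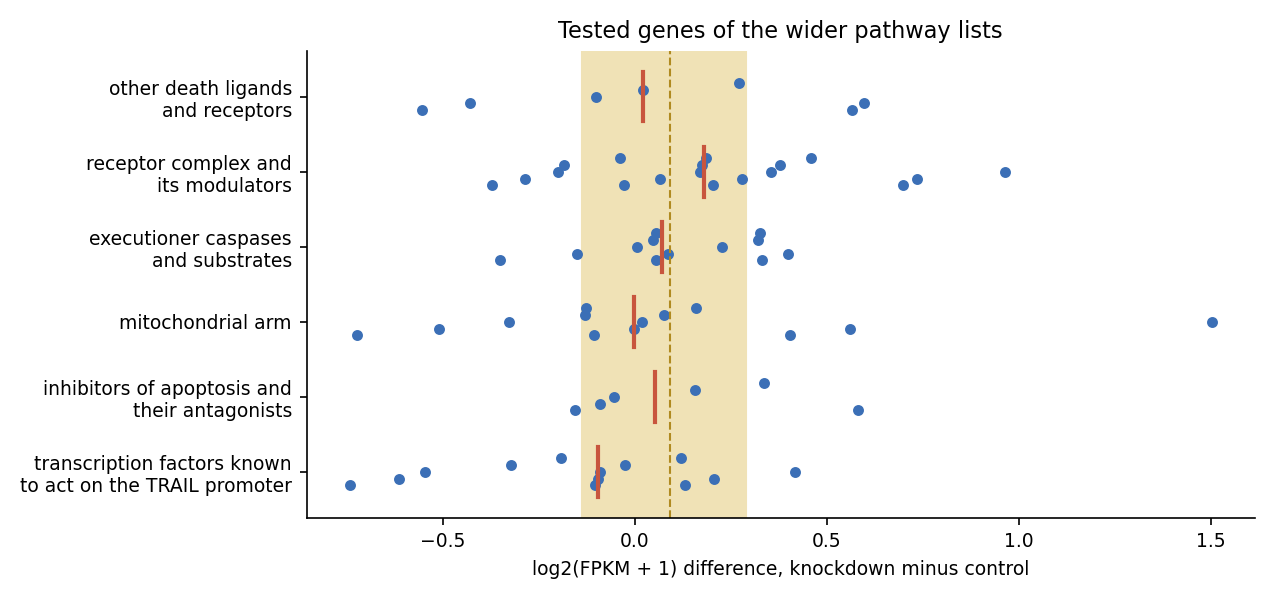
Each point is a tested gene of 1 of the 6 wider lists, placed by its difference in log2(FPKM + 1), knockdown minus control; red bars are list medians, the dashed line the median of all tested genes (0.09) and the shaded band their middle 50%. List medians lie between -0.10 and 0.18, and no point passed the threshold; the point farthest right is BCL2L2, listed at 13.83 FPKM in knockdown replicate 2 and at 0.56 to 0.93 FPKM in the other libraries.

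The labelled cell type was checked against marker genes. Of 12 keratinocyte markers 11 reached 1 FPKM, but KRT14 was listed at only 0.08 to 0.35 FPKM, and their summed FPKM was 820 and 846 in control and 495 and 519 in knockdown libraries. That sum was carried mainly by KRT5 (270.1 and 304.42 FPKM with shNC, 123.71 and 156.1 FPKM with shlnc-DC) and SFN (292.48 and 318.0 FPKM, then 167.28 and 173.59 FPKM). KRT15 went from 30.31 and 33.0 FPKM with shNC to 9.24 and 8.71 FPKM with shlnc-DC. With a log2 difference of -1.71 (limma adjusted p = 0.0362) it was the only keratinocyte marker called, beside 0.25% of all tested genes. Of the 11 tested, 6 were lower without overlap (KRT5, SFN, KRT15, DSC3, DSG3 and ITGA6), beside 19.2% of all tested genes. COL17A1 was higher without overlap in the knockdown, and TP63, PERP, LAMB3 and ITGB4 had overlapping groups. Simple epithelial markers were high, with a summed 1081 and 1160 FPKM in control and 918 and 902 FPKM in knockdown libraries. Among them KRT19 had a log2 difference of -0.81 (limma adjusted p = 0.0789), and EPCAM was listed at 93.32 to 119.07 FPKM. With KRT14 near 0 and KRT7, KRT19, EPCAM and SCGB1A1 high, the identity of the cells is not settled by this table, and HaCaT keratinocyte is used here as the label gives it. In bulk RNA fewer cells of a type and less RNA per cell cannot be told apart. TRAIL is also made by leukocytes. The defining leukocyte gene PTPRC was listed at 0 in all 4 libraries, though a value of 0 in this table may be a failed estimate. CD14 was lower without overlap, at 3.0 and 1.53 FPKM in control and 1.0 and 1.3 FPKM in knockdown libraries. CD68 and HLA-DRA were higher without overlap. Among all tested genes 35.6% were higher and 19.2% lower without overlap. None of CD14, CD68 and HLA-DRA passed the threshold. The part of any leukocytes in the TNFSF10 values was not tested. The summed level of 8 immune markers was 16.0 and 17.4 FPKM in control and 17.7 and 18.3 FPKM in knockdown libraries, mostly CD68 and HLA-DRA. Fibroblast and melanocyte markers summed to at most 0.69 FPKM, and 4 endothelial markers to 3.61 to 6.44 FPKM, nearly all CDH5. The part of the lower keratinocyte and simple epithelial marker sums in the TNFSF10 values was not tested.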

How the data were processed

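RNA from 2 control and 2 knockdown samples was purified with oligo(dT) beads from 5 µg of total RNA and sequenced as paired reads of 150 bases, per the labels' protocols. The authors deposited FPKM values with 2 decimals, and a fold (ratio) column with its log2. Without giving roles, the submitters' processing notes name StringTie 1.3.4d, HISAT2 2.0.4, cutadapt 1.9, edgeR and DESeq2. For build, annotation and strand setting the sources used here give nothing. Total reads are not part of the table. Low values of single-transcript genes came within 0.1 of a whole read for 34.4% to 36.1% of values at the best depth, so whole reads were not recovered and depth is unknown.

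Values were transformed as log2(FPKM + 1). Genes whose mean reached 1 FPKM in either group, 12411 in all, were fitted with limma 3.58.1 in R 4.3.3 (trend, group as the only term, two-sided, Benjamini-Hochberg over all genes, threshold 0.05). An exact permutation test on 2 against 2 libraries has 0.333 as its smallest p. The fit was tested on simulated data. Alternatives covered pseudocount, filter, scaling, replicate block, robust variance and each library left out. Of the gene IDs 58552 matched GENCODE 29. There were 0 columns without a sample.

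The members, lists and the naming rule were chosen with earlier results of these data known. Named were all members, WFDC21P, fixed pathway genes (TNFRSF11B, FASLG, CASP10, TNFRSF1A, TRADD, RIPK1, BID, XIAP, IRF1 and others that are not reported here), up to 3 genes of smallest p with no overlap per list, the 5 profiles nearest to TNFSF10 and expressed neighbours. TNF, RIPK3, MLKL, BCL2L1, MCL1, BCL2L2, exon-sharing genes and single markers were named after their values were seen.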

Additional observations from a re-analysis of the deposited data

How the results depend on the processing

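TNFSF10 was lower in the knockdown under all 12 alternatives, with a log2 difference between -2.22 and -1.86. It stayed past the threshold in 6 of them (adjusted p from 0.0365 to 0.0494). It was no longer past it with no filter on low values (-2.04, adjusted p = 0.17), with the replicate block (-2.04, adjusted p = 0.098) and without any 1 library (-2.22 to -1.86, adjusted p 0.13 to 0.245), so the count of members past the threshold went from 1 to 0 in those 6; fewer samples enter when a library is left out, and otherwise the cause was not tested. Over all genes, 14 higher and 17 lower became 0 and 0 in the same 6 settings; with a stricter filter of 5 FPKM they became 31 and 27, and under quantile normalization 17 and 40. Unadjusted p was under 0.05 for 1797 to 2251 genes with a library left out, 3876 with no filter and 3791 with the block. No source says that replicate numbers pair the libraries, and deviations of same-numbered libraries correlated across genes at a Pearson r of 0.124. TNFRSF10B, at -0.0032, ranged from -0.11 (quantile normalization) to 0.10 (without knockdown replicate 2); it was -0.10 without knockdown replicate 1 and turned positive, at 0.05, without control replicate 1. FAS, FADD, CASP8 and TNFRSF10A kept their sign and stayed short of the threshold in all 12. The wider lists had 0 genes past the threshold in every setting. Adding TNFRSF11B moved the decoy share of receptor FPKM from 0.444% to 2.92% in control and from 0.293% to 6.35% in knockdown cells. The added share reuses the values of TNFRSF11B and is not a separate observation. TNFRSF11B reached the minimum level only through the knockdown group and was not called (limma adjusted p = 0.181). The log2 ratio of CFLAR to CASP8 differed by -0.52 between groups, or by -0.41 with a pseudocount of 1 before the ratio. CFLAR lay below the minimum level with overlapping groups, and CASP8 was not called. The ratio reuses their values and is not a separate observation.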

Other observations

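The annotation in the authors' deposited table assigns 137 genes to the KEGG apoptosis pathway, of which 104 were tested; this list was added after the data were seen. One was higher and 1 lower past the threshold in limma, PIK3R2 (log2 difference 3.35) and TNFSF10, and the median was 0.06, beside 0.09 over all tested genes. Of 107 tested genes of the KEGG necroptosis pathway, IL1A was higher (1.50) and TNFSF10 lower, with a median of 0.15. Over all tested genes 0.113% were called higher and 0.137% lower. TNFSF10, a call already known, is counted in both lists, which overlap.

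The antisense gene TNFRSF10A-AS1, whose exons overlap those of TNFRSF10A, was listed at 1.04 and 1.47 FPKM in control and at 3.02 and 2.36 FPKM in knockdown cells. Its values were higher without overlap, as were those of 35.6% of all tested genes. Lymphotoxin beta, LTB, was below the minimum level for testing, at 0.17 and 0.14 FPKM in control and 0.74 and 0.78 FPKM in knockdown cells. No change is claimed for either gene.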
